A study of Mus musculus with 6 samples.

Results

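The genes described here are 43 genes of ciliary transport and of the ciliary transition zone, chosen by name from the 22558 genes of the deposited gene table: 9 subunits of the intraflagellar transport complex IFT-B, 2 of IFT-A, 6 motor subunits and kinesins, 14 genes of the transition zone and connecting cilium, 4 ciliary GTPases and lipid-binding carriers, 5 genes of the basal body and centrosome, and 3 genes of the photoreceptor axoneme, a ciliary kinase among them. All 43 had enough fragments to be tested. RNA of the whole eye was sequenced from mice at postnatal day 21, in 3 libraries of BC027072 -/- mice and 3 libraries of wild type mice, and all 6 libraries were labelled as C57BL/6. BC027072 is the mouse ortholog of the human gene C2orf71 (PCARE), which encodes a protein of the photoreceptor cilium and is mutated in forms of retinitis pigmentosa. Whether the 3 libraries of a group came from 3 animals is not stated in the labels. The p-values therefore reflect library-to-library spread, which may be technical.

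A photoreceptor's outer segment is a modified primary cilium, joined to the cell body by a narrow connecting cilium that corresponds to the transition zone of other cilia. Proteins made in the cell body pass this gate on intraflagellar transport trains, which kinesin-II moves outward with IFT-B and dynein-2 moves back with IFT-A, or as lipid-modified cargo bound to carriers that small GTPases unload. Mutations in many of these genes cause retinal degeneration in people, alone or together with kidney and brain disease.

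The libraries held 8444913, 5695530 and 10343820 fragments in knockout eyes, against 21815950, 14341398 and 8441944 in wild type eyes. BC027072 itself had 3, 2 and 3 fragments in the knockout libraries and 5854, 3667 and 2251 in the wild type libraries. Across genes, log2 CPM (the fragment count scaled to library size, with TMM factors) correlated at 0.991 to 0.994 within a genotype and at 0.986 to 0.988 between genotypes. Fragments of Xist and of 4 Y-linked genes showed that knockout libraries 1 and 3 were male, and that knockout library 2 and all 3 wild type libraries were female. A change by genotype and a change by sex therefore overlap in part, and the called differences are also given within the female libraries, where a single knockout library is assumed to vary like the wild type ones.

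Promoter sequences were available for 38 of the 43 genes, from RefSeq on GRCm38.p6, each running from 250 bases before to 50 after a transcription start. Ift80, Ift81, Ift122, Tmem67 and Sdccag8 were not in that table. The letters GTTGCC, a half-site of the X-box bound by the RFX factors of ciliated cells, were searched on both strands and stood in a promoter of 17 of the 38 genes (44.7%), against 14.1% of the 27025 genes in the table. The letters TAATCC, the motif of the photoreceptor factors Crx and Otx2, stood on one strand or the other in 3 of the 38 (7.89%), against 8.14% of all genes, and no match of either motif overlapped one of the other. The 3 genes that held TAATCC, Mak, Rpgrip1 and Unc119, were all among the 10 genes called below, and none of the 28 uncalled genes with a promoter held it. The 10 called genes had 17 promoters in the table and the 28 uncalled ones 30, so more sequence per gene was searched in the called genes. In Unc119 the match lies in 1 of its 3 promoters, and the promoter furthest upstream, at chr11:78343245-78343544, held none. In Mak too the promoter furthest upstream, at chr13:41079657-41079956, held no match. In both genes the match therefore belongs to a start further inside the gene. GTTGCC stood in 5 of the 10 called genes, Ift57, Arl13b, Ahi1, Cep164 and Nphp4, and in 12 of the 28 uncalled ones. The promoters below are shown because they carry these letters upstream of a listed start of a called gene, and distances are from that start. Each match is in capitals (GGATTA is TAATCC read on the other strand). In Ift57 the letters begin 87 and 60 bases upstream of the start and in Arl13b 181 bases upstream, while the Crx and Otx2 letters begin 28 bases upstream in Rpgrip1, 218 in Mak and 118 in Unc119. A match is a string of letters, not a binding site. Each sequence runs 5′ to 3′ on the strand of its gene.
Ift57, chr16:49699044-49699343, plus strand: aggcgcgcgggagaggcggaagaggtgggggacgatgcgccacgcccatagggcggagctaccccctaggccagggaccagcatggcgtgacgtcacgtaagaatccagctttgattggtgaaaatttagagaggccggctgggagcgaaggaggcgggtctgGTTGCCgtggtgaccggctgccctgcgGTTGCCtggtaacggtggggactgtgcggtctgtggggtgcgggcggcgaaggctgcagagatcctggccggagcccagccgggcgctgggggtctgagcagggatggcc
Arl13b, chr16:62846991-62847290, minus strand: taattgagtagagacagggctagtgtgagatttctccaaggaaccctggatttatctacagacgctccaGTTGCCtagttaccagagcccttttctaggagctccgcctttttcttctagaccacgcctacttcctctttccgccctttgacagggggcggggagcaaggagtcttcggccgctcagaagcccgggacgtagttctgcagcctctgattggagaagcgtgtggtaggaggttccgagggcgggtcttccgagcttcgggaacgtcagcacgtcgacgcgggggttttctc
Rpgrip1, chr14:52110653-52110952, plus strand: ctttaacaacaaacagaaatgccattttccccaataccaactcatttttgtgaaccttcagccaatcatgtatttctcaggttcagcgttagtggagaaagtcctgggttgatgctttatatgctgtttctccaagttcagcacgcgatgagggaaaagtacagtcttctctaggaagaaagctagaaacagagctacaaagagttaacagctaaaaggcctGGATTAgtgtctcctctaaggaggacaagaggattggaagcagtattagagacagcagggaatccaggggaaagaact
Mak, chr13:41070416-41070715, minus strand: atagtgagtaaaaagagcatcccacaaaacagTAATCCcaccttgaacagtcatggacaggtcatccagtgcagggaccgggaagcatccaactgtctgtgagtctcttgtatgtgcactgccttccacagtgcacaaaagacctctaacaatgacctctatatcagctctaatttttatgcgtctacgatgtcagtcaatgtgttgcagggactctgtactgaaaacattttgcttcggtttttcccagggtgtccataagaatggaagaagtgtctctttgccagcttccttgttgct
Unc119, chr11:78345334-78345633, plus strand: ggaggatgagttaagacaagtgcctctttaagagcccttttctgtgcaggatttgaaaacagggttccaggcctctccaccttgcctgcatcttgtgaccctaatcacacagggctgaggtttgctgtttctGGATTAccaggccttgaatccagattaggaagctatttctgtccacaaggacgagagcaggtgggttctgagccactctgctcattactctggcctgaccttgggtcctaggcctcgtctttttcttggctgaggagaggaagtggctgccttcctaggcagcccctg

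Of the 43 genes, 8 were lower and 2 were higher in knockout eyes (edgeR quasi-likelihood test, Benjamini-Hochberg adjusted p under 0.05 over all 14919 genes tested), and 33 did not pass. The 10 called genes are 23.3% of the group, against 6.24% of all genes tested; the 8 lower genes are 18.6% against 3.35%, and the 2 higher genes 4.65% against 2.89%. None of the changes reached 2-fold. The lower genes were Fam161a, Nphp4, Unc119, Cc2d2a, Rpgrip1, Arl13b, Cep164 and Ahi1, at 67.7% to 83.5% of the wild type level, and the higher genes were Ift57 and Mak, at 135.8% and 120.4%. The median log2 fold change over the 43 genes was -0.08, with 27 below 0 and 16 above, beside a median of 0.00 over all genes tested. Knockout values lay wholly below wild type values in 15 genes (34.9%, against 11.7% of all genes tested) and wholly above in 4 (9.30%, against 11.6%), and the groups overlapped in the other 24. Of the 33 uncalled genes, 31 had a 95% interval of the log2 fold change that stayed within 0.5 of 0. The exceptions were Kif17 and Kif7, named here after their values were seen, with intervals from -0.44 to 0.95 and from -0.14 to 0.63. Leaving out single libraries left 7 of the 10 calls without knockout library 1, 4 without knockout library 2 (Fam161a, Ift57, Nphp4 and Unc119), 8 without knockout library 3, 8 without wild type library 1, 8 without wild type library 2 and 7 without wild type library 3.

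**Figure D1:**
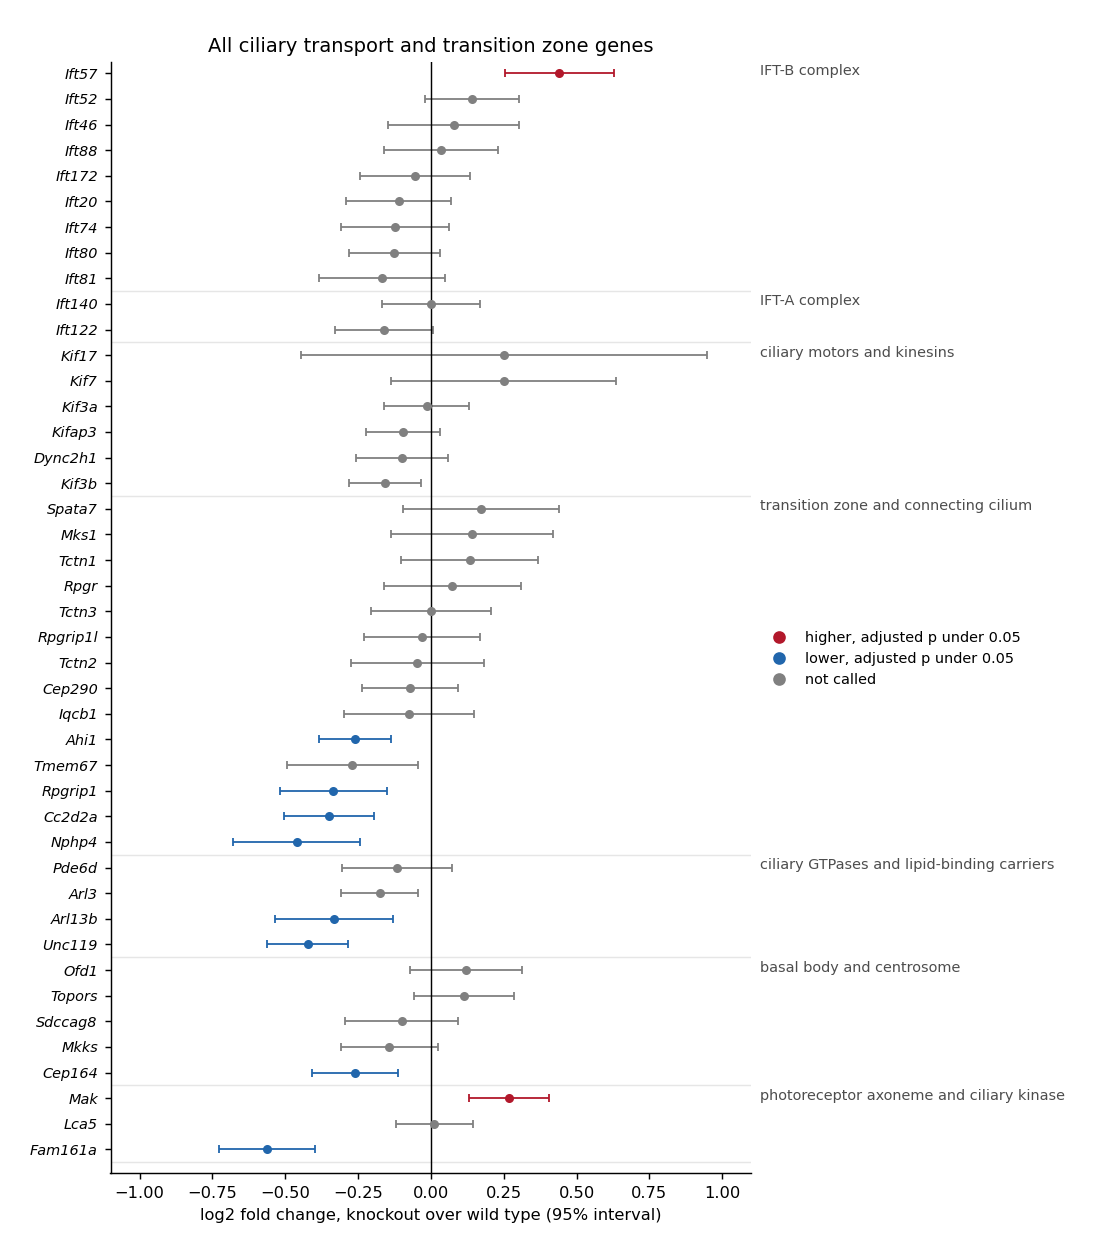
Log2 fold change, knockout over wild type eyes (x axis), for the 43 genes (y axis), grouped by role, with points for the edgeR estimate and bars for its 95% interval over 3 knockout and 3 wild type libraries. The 8 genes called lower (blue) lie between -0.56 and -0.26, the 2 called higher (red) at 0.27 and 0.44, and 33 are not called (grey).

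Among the 9 IFT-B genes, Ift57 rose in knockout eyes and the other 8 did not pass the test. Ift57 encodes an IFT-B subunit of the anterograde trains, and lies at chromosome 16, 49699407 to 49765239 (mm9). It had 29.3, 29.5 and 32.8 CPM in the knockout libraries, against 21.3, 23.0 and 24.1 CPM in the wild type libraries. All 3 knockout values lay above all 3 wild type values, with a log2 fold change of 0.44 ± 0.09 (SE) and an adjusted p of 0.00543. Within the female libraries the log2 fold change was 0.38, with an adjusted p of 0.292. The other 8 IFT-B genes had log2 fold changes from -0.17 to 0.14. Ift20, whose product also serves at the Golgi and which had the highest FPKM (fragments scaled to transcript length and library size) of the 9, had 26.2, 23.6 and 27.7 CPM in knockout eyes and 28.0, 27.6 and 29.0 CPM in wild type eyes. These groups overlapped, at a log2 fold change of -0.11 ± 0.09 and an adjusted p of 0.548.

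The rise of Ift57 was also measured against the mean log2 CPM of the other 8 IFT-B genes in the same library, a ratio chosen after the values were seen. It was -0.10, -0.12 and -0.06 on the log2 scale in knockout libraries and -0.60, -0.59 and -0.51 in wild type libraries. The groups did not overlap and their means differed by 0.47. The two-sided exact permutation p was 0.1, the smallest that 3 against 3 can give, and 0.14 after adjustment over the 7 ratios computed. Ift57 was called higher and the other 8 did not pass, so the gap followed from that choice and adds no evidence. Per the GENCODE annotation of a later build, an antisense RNA, Gm15518, overlaps exons of Ift57. Whether the counting used strand is not given in the sources used here, so reads of Ift57 and Gm15518 cannot be told apart.

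Neither of the 2 IFT-A genes and none of the 6 motor genes passed the test. Ift122, a core IFT-A subunit, had 39.5, 35.5 and 40.5 CPM in knockout eyes, against 46.2, 41.7 and 41.1 CPM in wild type eyes. Knockout values lay below the wild type ones without overlap, by a margin small beside the spread, and the log2 fold change was -0.16 ± 0.08 with an adjusted p of 0.294. Ift140, the other IFT-A gene, had a log2 fold change of 0.00. Kif3b encodes a motor subunit of kinesin-II and had 80.3, 79.1 and 81.0 CPM in knockout libraries, against 89.2, 89.7 and 89.6 CPM in wild type libraries. The groups did not overlap and both were tight, yet the log2 fold change was -0.16 ± 0.06, short of the threshold at an adjusted p of 0.131. The remaining 5 motor genes were Kif3a and Kifap3, the partners of Kif3b in kinesin-II, Dync2h1, the heavy chain of dynein-2, and the kinesins Kif17 and Kif7, with log2 fold changes from -0.10 to 0.25. Kif17 had the lowest mean FPKM of the 43 genes, 0.836 in knockout eyes and 0.584 in wild type eyes, and its 95% interval was the widest.

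Of the 14 transition zone and connecting cilium genes, 4 fell, none rose, and 10 did not pass. Nphp4 encodes a nephrocystin of the transition zone (chromosome 4, 151852251 to 151937293, mm9). It had 18.5, 18.9 and 17.5 CPM in knockout libraries, against 27.0, 21.9 and 26.3 CPM in wild type libraries, with no overlap, a log2 fold change of -0.46 ± 0.10 and an adjusted p of 0.0119. The adjusted p was 0.0623 without knockout library 3 and 0.0568 without wild type library 1. Cc2d2a encodes a scaffold of the Meckel-Joubert syndrome module at the ciliary gate (chromosome 5, 44053618 to 44132209, mm9). It had 65.7, 57.7 and 69.0 CPM in knockout eyes, against 80.01, 86.6 and 80.2 CPM in wild type eyes. Knockout library 2 was the lowest of the 6, and the log2 fold change was -0.35 ± 0.07 with an adjusted p of 0.00674, or 0.0504 without that library.

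Rpgrip1 encodes the protein that anchors Rpgr in the connecting cilium. The deposited interval is chromosome 14, 52730578 to 52816914 (mm9). It is listed for 2 genes, so its ends may not be those of Rpgrip1. Rpgrip1 had 181, 190.7 and 226 CPM in knockout libraries, against 231, 246 and 279.9 CPM in wild type libraries. The highest knockout value stood just under the lowest wild type value, and the log2 fold change was -0.33 ± 0.09 with an adjusted p of 0.0274. That adjusted p was 0.126 without knockout library 1, 0.136 without knockout library 2, 0.0686 without wild type library 2 and 0.127 without wild type library 3. Exons of Supt16 lie on the opposite strand of Rpgrip1 in the GENCODE annotation, so its count is uncertain to that extent. Ahi1 encodes jouberin, a transition zone protein mutated in Joubert syndrome (chromosome 10, 20672353 to 20800235, mm9). It had 118, 109.5 and 121 CPM in knockout eyes, against 139.7, 141 and 137 CPM in wild type eyes, a clear gap between groups. The log2 fold change was -0.26 ± 0.06 with an adjusted p of 0.0126, or 0.0955 without knockout library 2.

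Rpgr, the X-linked partner of Rpgrip1, had 17.3, 17.2 and 17.6 CPM in knockout libraries and 15.6, 18.9 and 14.98 CPM in wild type libraries. The knockout values lay inside the wild type range, and the log2 fold change was 0.07 ± 0.11 with an adjusted p of 0.793. The 95% interval of Rpgr ran from -0.16 to 0.31, and exons of Srpx overlap it on the same strand in the GENCODE annotation, so its count is uncertain to that extent. Whether Rpgr and Rpgrip1 differed from each other in their change was not tested. The 9 other transition zone genes that did not pass, Cep290, Iqcb1, Rpgrip1l, Spata7, Tmem67, Mks1, Tctn1, Tctn2 and Tctn3, had log2 fold changes from -0.27 to 0.17.

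All 4 GTPase and carrier genes had lower means in knockout eyes, and 2 of them passed the test. Unc119 encodes the carrier that extracts acylated transducin alpha and ferries it to the outer segment (chromosome 11, 78157024 to 78162658, mm9). It had 560.1, 511 and 509.9 CPM in knockout libraries, against 737, 694 and 689 CPM in wild type libraries. The gap between the groups was larger than the spread within either, and the log2 fold change was -0.42 ± 0.07 with an adjusted p of 0.000650. Arl13b encodes the GTPase that activates Arl3 in cilia. The deposited interval, chromosome 16, 62793515 to 62846866 (mm9), is listed for 2 genes, so its ends may not be those of Arl13b. Arl13b had 35.8, 46.3 and 47.5 CPM in knockout eyes, against 51.5, 58.4 and 53.3 CPM in wild type eyes. Knockout library 1 was far below the other 2, the groups did not overlap, and the log2 fold change was -0.33 ± 0.09 with an adjusted p of 0.0495. This call was the nearest to the threshold: the adjusted p was 0.195 without knockout library 1, 0.0817 without knockout library 2, 0.183 without wild type library 2 and 0.0946 without wild type library 3.

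Arl3, the GTPase that unloads Unc119 and Pde6d, had 78.7, 75.8 and 73.7 CPM in knockout libraries, against 84.8, 83.1 and 90.5 CPM in wild type libraries. It stood first among the genes just outside the threshold: the groups did not overlap, and the log2 fold change was -0.18 ± 0.06 at an adjusted p of 0.120. Pde6d encodes the carrier of prenylated proteins and had 43.7, 34.4 and 38.9 CPM in knockout eyes and 39.4, 44.6 and 44.4 CPM in wild type eyes. Those groups overlapped, at a log2 fold change of -0.12 ± 0.09 and an adjusted p of 0.547.

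Cep164 was the 1 gene of 5 in the basal body and centrosome group that passed. It encodes a protein of the distal appendages that dock the basal body to the membrane (chromosome 9, 45575029 to 45636721, mm9). It had 59.8, 59.4 and 67.0 CPM in knockout eyes, against 73.9, 72.1 and 78.7 CPM in wild type eyes, with no overlap, a log2 fold change of -0.26 ± 0.07 and an adjusted p of 0.0333. The adjusted p was 0.122 without knockout library 1, 0.147 without knockout library 2 and 0.114 without wild type library 3, and DESeq2 gave 0.0547. X-linked Ofd1, a centriolar protein gene, had 25.6, 27.7 and 31.0 CPM in knockout libraries and 25.2, 27.2 and 25.7 CPM in wild type libraries, overlapping groups with a log2 fold change of 0.12 ± 0.09 and an adjusted p of 0.542. Exons of Trappc2 overlap Ofd1 on the opposite strand. The other 3 genes, Sdccag8, Topors and Mkks, had log2 fold changes from -0.14 to 0.11.

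Of the 3 axoneme genes, Fam161a fell, Mak rose and Lca5 did not pass. Fam161a encodes a microtubule-binding protein of the connecting cilium that is mutated in human retinitis pigmentosa (chromosome 11, 22913387 to 22923741, mm9). It had 57.7, 56.0 and 66.6 CPM in knockout libraries, against 83.0, 91.5 and 94.5 CPM in wild type libraries. The groups stood well apart, and its log2 fold change, -0.56 ± 0.08 at an adjusted p of 0.000218, was the largest in size of the 43. Mak encodes a ciliary kinase that limits the length of photoreceptor cilia in mice (chromosome 13, 41120489 to 41175075, mm9), and had 104, 105 and 113 CPM in knockout eyes, against 84.5, 90.0 and 94.8 CPM in wild type eyes. All knockout values lay above all wild type ones, with a log2 fold change of 0.27 ± 0.06 and an adjusted p of 0.0186, which was 0.0563 without knockout library 2, 0.0969 without knockout library 3 and 0.0654 without wild type library 1. Lca5, which encodes lebercilin and is named here to complete the role, had a log2 fold change of 0.01 ± 0.06, with a 95% interval from -0.12 to 0.14. The ratio of Mak to the mean of Fam161a and Lca5 was 0.72, 0.74 and 0.76 on the log2 scale in knockout libraries and 0.17, 0.20 and 0.21 in wild type libraries. These did not overlap, and the two-sided exact permutation p was 0.1, the smallest possible, or 0.14 after adjustment over the 7 ratios computed. The ratio was chosen after the values were seen. Mak was called higher and Fam161a lower, so the gap followed from that choice and adds no evidence. Part of it is the fall of Fam161a.

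**Figure D2:**
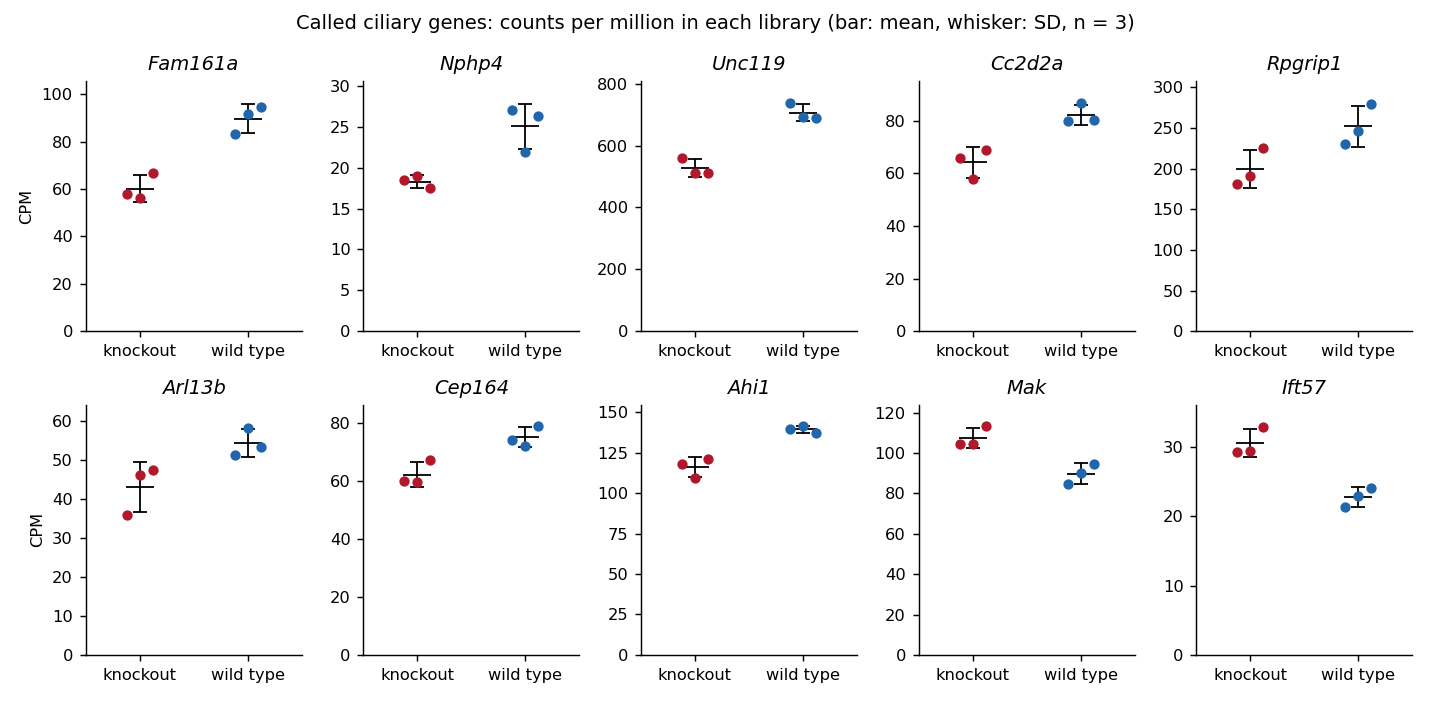
CPM (y axis, from 0) of the 10 called genes in the 3 knockout libraries (red, left) and the 3 wild type libraries (blue, right), with a bar for the mean and a whisker for the SD. In each panel the groups do not overlap: 8 genes are lower in knockout eyes and Mak and Ift57 are higher.

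The called genes included several of the most abundant of the 43. The median level over all 6 libraries was 16.7 FPKM for called genes and 7.08 FPKM for uncalled genes, and the median total was 5303 fragments for called and 2105 for uncalled genes. Of the 9 genes at 16 FPKM or more, 5 were called, and of the 34 below it another 5. Unc119 stood first in level, at 579 ± 62.1 FPKM in knockout eyes and 825 ± 238 in wild type eyes (SD, n = 3 each), followed by Arl3 at 118 ± 4.42 and 138 ± 22.1. Across the 43 genes, level and log2 fold change had a Spearman rho of -0.440, given as a description, since the genes share libraries and are not independent. The median standard error of the log2 fold change was 0.07 for called and 0.09 for uncalled genes, and standard errors ran from 0.06 for Kif3b to 0.33 for Kif17. The median coefficient of variation between libraries of a group was 7.17% in knockout eyes and 5.25% in wild type eyes.

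**Figure D3:**
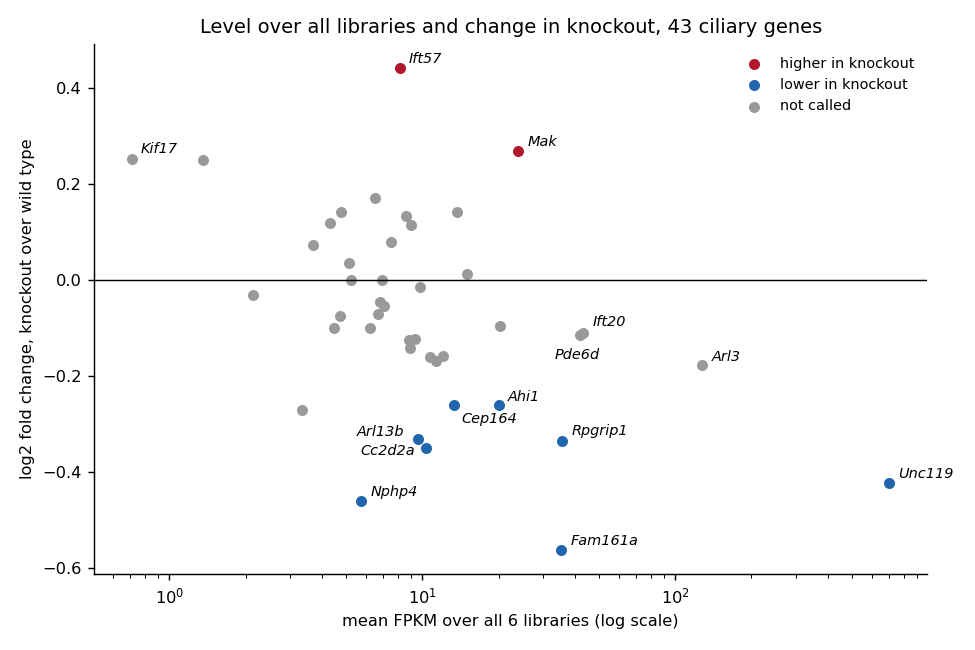
Mean FPKM over all 6 libraries (x axis, log scale) and log2 fold change, knockout over wild type eyes (y axis), of the 43 genes, 1 point each. Called genes are red (2 higher) or blue (8 lower); Unc119 is the most abundant gene at the right, and Ift57 and Nphp4 are called at levels below the median of 8.81 FPKM.

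Within the female libraries, the 1 knockout library against 3 wild type ones, all 10 called genes kept the direction they had over 6 libraries. That outcome was largely fixed beforehand and is no check. The groups of all 10 genes did not overlap, and the female libraries are part of the same 6. Fam161a at -0.68, Cc2d2a at -0.51 and Unc119 at -0.47 on the log2 scale passed there, with adjusted p of 0.0103, 0.0308 and 0.0250. Ahi1 at -0.35 (0.0950), Rpgrip1 at -0.40 (0.133), Cep164 at -0.33 (0.201), Nphp4 at -0.41 (0.395) and Arl13b at -0.23 (0.509) did not pass, with the adjusted p in parentheses. Nor did Mak, at 0.23 with an adjusted p of 0.417, or Ift57, whose value is given above. With sex as a covariate the same 3 genes passed, but both male libraries are knockout, so that fit too sets knockout library 2 against the wild type libraries and is no separate check. Its calls were 3 of 43 lower and none higher, against 1.58% of all genes tested in either direction, 0.965% lower and 0.61% higher. DESeq2 called 9 of the 43, 7 lower and 2 higher, against 5.05% of all genes tested, 2.88% lower and 2.17% higher. Genotype and sex cannot be fully told apart, since the wild type group has no male library.

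In the deposited isoform counts, Unc119 and Fam161a fell and no isoform of the 43 genes rose. Of 56 isoforms of the 43 genes, 48 were tested. Of all 16546 isoforms tested, 1.57% passed at an adjusted p under 0.05 in either direction. Of the 48, 2 passed, both lower. These were the only listed isoforms of Unc119, with a log2 fold change of -0.42 ± 0.06 and an adjusted p of 0.0281, and of Fam161a, at -0.57 ± 0.09 and 0.0427. Without knockout library 1, 1 of these calls was left, and without any other single library 0 were left. Rpgrip1 has 2 listed isoforms, and the longer one of 5213 bases stood at -0.40 ± 0.09 on the log2 scale (adjusted p 0.117), beside -0.02 ± 0.30 for the shorter one of 4601 bases. The longer isoform held 86.4%, 78.9% and 74.7% of the gene's fragments in knockout libraries and 82.1%, 85.2% and 83.2% in wild type libraries, so the groups overlapped in their use of it. In Ift122, 1 of 2 isoforms held 8.90%, 32.0% and 30.3% of fragments in knockout libraries, against 41.0%, 32.5% and 36.4% in wild type libraries. These did not overlap, by a narrow margin and with knockout library 1 far below the rest, and the isoform's log2 fold change was -0.80 ± 0.45, at an adjusted p of 0.523. The shares are estimates of the authors' software, and 35 of the 43 genes have a single listed isoform.

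The authors' deposited table, made by their software from the same libraries and so no independent evidence, tested 42 of the 43 genes and called 5, against 6.95% of the 14403 genes it tested. In the authors' deposited table Fam161a had a log2 fold change of -0.57 (q 0.00162), Nphp4 -0.53 (q 0.00162), Unc119 -0.51 (q 0.00162), Cc2d2a -0.37 (q 0.00866) and Ift57 0.46 (q 0.00296). These are 5 of the 10 genes called from the counts, and no other of the 43 was called there. In the authors' FPKM, Unc119 had 616, 615 and 508 FPKM in knockout libraries and 782, 1081 and 612 FPKM in wild type libraries, so that the groups overlapped slightly on this scale and did not in CPM. A limma test on log2(FPKM + 1) covered 42 of the 43 genes and called none of them, with 3 at an unadjusted p under 0.05. It called 10 genes higher and 3 lower in the whole table.

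Other genes of the same machinery were described by lists of 74 genes in the table, of which 72 were tested, 2 rose and 6 fell, with a median log2 fold change of -0.04. The 8 called genes are 11.1% of those tested, against 6.24% of all genes; the 6 lower are 8.33% against 3.35%, and the 2 higher 2.78% against 2.89%. None of 11 further intraflagellar transport genes and none of 10 further motor genes passed. Of 8 further axoneme genes 3 fell: Rp1l1 (-0.43 ± 0.07, adjusted p 0.000724) and Rp1 (-0.30 ± 0.08, 0.0298), doublecortin-domain proteins of the photoreceptor axoneme, and Crocc (-0.24 ± 0.06, 0.0255), which encodes rootletin of the ciliary rootlet. Of 12 cargo and GTPase genes, Tulp1 fell (-0.51 ± 0.06, adjusted p 0.000111) and Tulp3 rose (0.41 ± 0.10, 0.0263), tubby-family adaptors of photoreceptors and of primary cilia in general. Cep250, a centriole linker gene, fell (-0.44 ± 0.07, adjusted p 0.000580) among 14 basal body genes. Of 17 transition zone genes Cspp1 rose (0.38 ± 0.11, adjusted p 0.0434) and Poc5 fell (-0.28 ± 0.08, 0.0348). Tulp1, Cep250 and Rp1l1 kept their call without each single library and within the female libraries. Leaving out single libraries ended the call of Cspp1 for all but knockout library 1 (adjusted p 0.0554 to 0.204), of Tulp3 for all but knockout library 2 (0.0528 to 0.130) and of Poc5 for all 6 (0.0554 to 0.123). It also ended the call of Rp1 (adjusted p 0.115 without knockout library 1, 0.103 without knockout library 2 and 0.154 without wild type library 2) and of Crocc (0.0726 without knockout library 1, 0.152 without knockout library 2 and 0.0775 without wild type library 1).

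Markers of the cells that carry these cilia moved as well. Of 15 tested rod markers 14 fell and 1, Sag, rose, with a median log2 fold change of -0.52. The summed level of all 16 rod markers with deposited counts was 22386 to 25099 CPM in knockout eyes, against 35679 to 36425 CPM in wild type eyes. Of 10 cone markers 7 fell and 1, Gnb3, rose, with a median log2 fold change of -0.38. Their sum was 801 to 838 CPM in knockout eyes, against 859 to 892 in wild type eyes. Gnb3 alone had a mean of 308 CPM in knockout eyes and 132 CPM in wild type eyes. The sum therefore hides part of the fall of the 7. Of 12 microglia markers 8 rose and none fell, with sums of 380.5 to 425 CPM in knockout eyes, against 274 to 296 in wild type eyes. None of 7 tested markers of motile cilia passed, and none of 10 lens markers passed. The 13 motile cilium markers with deposited counts summed to 40.1 to 43.6 CPM in knockout eyes and 38.3 to 44.4 in wild type eyes. Of 10 Mueller glia markers 2 rose and 1 fell, of 8 pigment epithelium markers 1 rose and 1 fell, and of 10 extraocular muscle markers 2 rose. In a whole eye, fewer photoreceptors and less RNA per photoreceptor cannot be told apart, and the part of these marker differences in the changes of the ciliary genes was not tested.

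Set against the mean log2 CPM of the 15 rod markers in the same library, the ciliary genes kept different positions. Fam161a stood at -4.04, -3.99 and -3.77 in knockout libraries and at -3.99, -3.87 and -3.82 in wild type libraries, overlapping groups whose means differed by -0.04 (two-sided exact permutation p 0.9). Unc119 and Rpgrip1 stood 0.11 and 0.20 higher in knockout eyes on this scale (p 0.1 and 0.2), and Arl3 stood 0.36 higher (p 0.1). Mak stood at -3.18, -3.09 and -3.00 in knockout libraries and at -3.97, -3.89 and -3.82 in wild type libraries, a difference of 0.80 without overlap (p 0.1). Since Mak was called higher and 14 of the 15 rod markers lower, this gap followed from those calls. The log2 fold changes of Unc119, Rpgrip1 and Arl3 were smaller in size than the median of the rod markers. Their gaps restate those values and add no evidence. The smallest p that 3 against 3 can give is 0.1, and after adjustment over the 7 ratios computed the p-values were 0.14, 0.233 for Rpgrip1 and 0.9 for Fam161a. These ratios were chosen after the values were seen, and they say nothing on which cells the RNA came from.

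**Figure D4:**
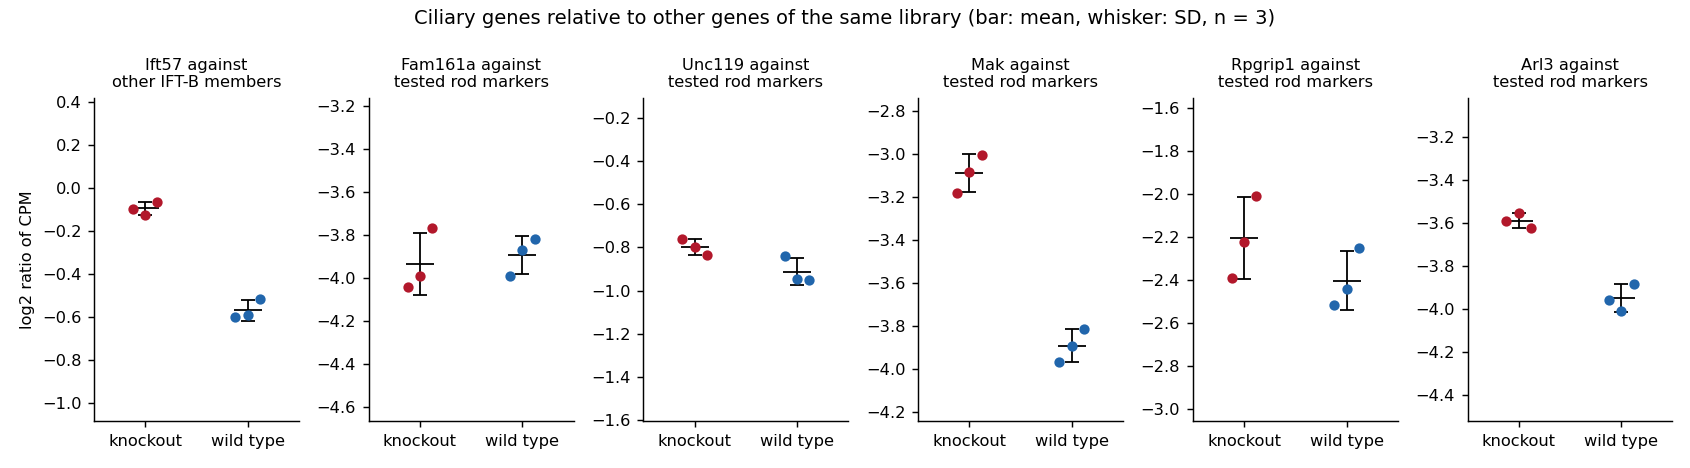
Log2 ratio of CPM (y axis) of Ift57 to the mean of the other 8 IFT-B genes, and of Fam161a, Unc119, Mak, Rpgrip1 and Arl3 to the mean of the 15 tested rod markers, in each knockout (red, left) and wild type (blue, right) library, with mean and SD. All axes span the same range of log2 units; Ift57 and Mak differ by 0.47 and 0.80, and Fam161a by -0.04.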

How the data were processed

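Whole-eye RNA libraries, 3 of BC027072 -/- and 3 of wild type mice, the number of animals not stated, were analysed, grouped by the genotype in the labels. The build mm9 and the tools TopHat2 2.0.12, Cufflinks 2.2.1 and Cuffdiff 2.2.1 are named per the submitters' processing notes. The authors deposited estimated counts of fragments per gene and isoform and library, which are not scaled (98.5% of gene values and 71.7% of isoform values were whole within 1e-06), and FPKM, which carry the authors' own scaling. The authors' deposited comparison holds FPKM means, p-values and q-values.

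Estimated counts were rounded and tested with edgeR 4.0.16 in R 4.3.3: genes kept by filterByExpr (count of at least 10, total of at least 15) were scaled by TMM, and genotype was the single term of the quasi-likelihood fit over 6 libraries. Isoforms needed a mean FPKM of at least 1. Genes (7) and isoforms (12) with a failed estimate were left out, none of them among the 43. SE is the log2 fold change over the square root of F. The library totals of 5695530 to 21815950 fragments set the precision, and 37 of the 43 genes had at least 100 fragments in every library. The fit was tested on simulated data, with a single setting for the spread of all genes and no effect of sex. That test therefore cannot speak to the overlap of genotype and sex in these libraries. Alternatives were other scalings and filters, DESeq2 1.42.0, limma 3.58.1 on log2(FPKM + 1), log2(FPKM + 0.1) and log2(CPM + 1), sex as a covariate, female libraries alone, a replicate block, and leaving out each library. The deposited tables number libraries from 0 and the labels from 1, so numbers only name libraries, read in order. Of the deposited values per library, only the unscaled fragments and FPKM were used. Genes named are all those called, Rpgr and Ofd1 as X-linked, the 3 uncalled with the highest FPKM, the 2 nearest the threshold, and the smallest p of each role without a call. The 43 genes, the lists and the tests were chosen with earlier results of these data known.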

Additional observations from a re-analysis of the deposited data

How the results depend on the processing

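No called gene of the 43 changed its direction under any of the 17 alternatives at gene level. For the alternatives that dropped libraries this was largely fixed beforehand, since the groups of the called genes did not overlap. Fam161a and Unc119 passed in 15 of the 17, Cc2d2a in 14, Ift57 in 13 and Ahi1 in 12. Nphp4 passed in 11, Mak in 10, Rpgrip1 and Cep164 in 9 and Arl13b in 7. Counts over all genes tested, over the 43 genes and over the other cilium genes are given in that order, higher and then lower in knockout eyes. They were 10 and 3, 0 and 0, and 0 and 0 with limma on log2(FPKM + 1); 6 and 3, 0 and 0, and 0 and 0 on log2(FPKM + 0.1), with 3 of the 43 at an unadjusted p under 0.05 in each; 91 and 144, 0 and 3, and 0 and 3 with sex as a covariate; and 96 and 149, 0 and 3, and 0 and 3 in the female libraries. DESeq2 called 0 of the other cilium genes higher and 5 lower. The limma tests on FPKM covered 42 of the 43 genes. The cause of the loss on FPKM was not tested. Leaving out each library in turn gave 271 to 425 genes higher and 315 to 460 lower, 1 to 2 of the 43 higher and 3 to 7 lower, 0 to 1 of the other cilium genes higher and 3 to 5 lower, and 0 to 1 isoforms of the 43 genes lower. Isoforms called lower numbered 0 with limma, 0 with sex as a covariate and 0 with the replicate block. Same-numbered libraries of the 2 genotypes had correlations of their deviations of 0.149, 0.0899 and -0.0386. Differently numbered libraries had correlations from -0.192 to 0.0988. With 3 libraries per group these values cannot settle whether the numbers pair libraries. With a replicate block 558 genes were higher and 611 lower, against 431 and 500 without it, and 2 and 8 of the 43 genes passed. Genes with few fragments limit what could be seen: for Kif17, at 13 fragments in its lowest library, a change of 0.5 on the log2 scale was within the interval.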
